A study of Mus musculus with 12 samples.

Results

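The Fc receptor genes on this immunology panel were the 7 genes whose symbols begin with Fcer or Fcgr, out of 556 genes with values. The rule went by symbol and not by level, though earlier results of these data were known when it was chosen. They are Fcer1a, Fcer1g, Fcgr1, Fcgr2b, Fcgr3, Fcgr4 and Fcgrt. Messenger RNA was counted by NanoString nCounter, which hybridizes a pair of probes to each transcript and counts bar-coded molecules without amplification, in the terminal ileum of 12 male C57BL/6 mice at week 7 of life. Specific pathogen-free (SPF) mice carry a microbiota without listed pathogens, and germ-free (GF) mice carry none. Pulsed antibiotic treatment (PAT) was a course of the macrolide tylosin in the drinking water of nursing dams, which reached the pups early in life, and control litters had water without it. The 4 groups of 3 mice were SPF control (mice 2, 7 and 8), SPF PAT (mice 21, 26 and 27), GF control (mice 37, 38 and 39) and GF PAT (mice 41, 42 and 43). The SPF litters came from purchased breeders and the GF mice from a colony bred at the study's institution, so colony and colonization cannot be told apart in any SPF against GF comparison. No label gives the litter or the assay cartridge of a mouse, and littermates may be among the 3 mice of a group, so each p-value measures only the spread between these mice.

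Fc receptors are the cell surface proteins through which immune cells read antibodies. Fcgr1, Fcgr3 and Fcgr4 encode ligand-binding chains of activating IgG receptors, which signal through the ITAM motif of the shared gamma chain encoded by Fcer1g. Fcgr2b encodes the inhibitory IgG receptor, which carries an ITIM motif, restrains signalling of the B cell receptor on B cells and opposes the activating receptors on macrophages and other myeloid cells. Fcer1a encodes the IgE-binding chain of the high-affinity IgE receptor of mast cells and basophils. Fcgrt encodes the heavy chain of the neonatal Fc receptor, which pairs with beta-2 microglobulin, is found in epithelium, endothelium and myeloid cells, and carries IgG across the gut wall and protects it from breakdown.

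Values are log2 normalized counts. Their underlying counts, which could be worked back as whole numbers, ran from 600308 to 923395 in total per mouse, and the 3 SPF control mice had the largest totals, from 806043 upwards, against at most 681370 in the other 9. Counts per mouse behind the individual genes were 1673 to 2385 for Fcgrt, 318 to 1092 for Fcgr2b, 241 to 537 for Fcgr4, 188 to 433 for Fcgr3, 183 to 371 for Fcer1g and 72 to 176 for Fcgr1. Fcer1a had only 2 to 21 counts and was the least precise of the 7. It was also the member that did not reach a mean normalized count of 20, which the other 6 did. Probes differ in efficiency, so the counts do not rank genes against each other. Where a difference between genes is taken within a mouse, only its change between mice or groups is meant. Sums over markers are weighted towards the genes with the most counts. Fcgr2b, Fcgr3 and Fcgr4 are related in sequence, and whether a probe of one also binds another was not examined, as the probe sequences were not used here.

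Fcgr2b, Fcgr4 and Fcgr3 lie next to each other on mouse chromosome 1, and Fcgr1 lies on chromosome 3. Promoters are shown for these 4 because the mouse-by-mouse levels of Fcgr1, Fcgr3 and Fcgr4 ran together and those of their neighbour Fcgr2b did not, as described further on. Fcer1g also ran with Fcgr1, Fcgr3 and Fcgr4, and its window was searched but is not printed. Each window holds the 250 bases before the annotated start, written 5′ to 3′ on the gene's own strand (RefSeq, GRCm38.p6). Capitals mark GAGGAA, the core bound by the myeloid and B cell transcription factor PU.1, or its reverse complement TTCCTC. The windows are chr3:96293970-96294219 (minus strand) for Fcgr1, chr1:171059404-171059653 (minus strand) for Fcgr3, chr1:171018676-171018925 (plus strand) for Fcgr4 and chr1:170976072-170976321 (minus strand) for Fcgr2b.
Fcgr1: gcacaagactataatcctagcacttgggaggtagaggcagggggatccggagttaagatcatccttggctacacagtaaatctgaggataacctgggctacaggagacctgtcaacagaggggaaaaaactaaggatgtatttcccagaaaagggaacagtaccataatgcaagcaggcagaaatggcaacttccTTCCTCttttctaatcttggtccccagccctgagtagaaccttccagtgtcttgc
Fcgr3: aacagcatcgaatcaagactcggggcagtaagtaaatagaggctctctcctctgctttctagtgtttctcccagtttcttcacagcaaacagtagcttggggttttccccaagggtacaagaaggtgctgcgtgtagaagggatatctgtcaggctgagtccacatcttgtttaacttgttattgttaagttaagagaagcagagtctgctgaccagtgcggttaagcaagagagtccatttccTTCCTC
Fcgr4: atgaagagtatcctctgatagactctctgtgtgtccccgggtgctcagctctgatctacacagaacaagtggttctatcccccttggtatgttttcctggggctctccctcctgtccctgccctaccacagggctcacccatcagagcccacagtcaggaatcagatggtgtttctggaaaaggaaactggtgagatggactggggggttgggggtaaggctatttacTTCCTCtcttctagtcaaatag
Fcgr2b: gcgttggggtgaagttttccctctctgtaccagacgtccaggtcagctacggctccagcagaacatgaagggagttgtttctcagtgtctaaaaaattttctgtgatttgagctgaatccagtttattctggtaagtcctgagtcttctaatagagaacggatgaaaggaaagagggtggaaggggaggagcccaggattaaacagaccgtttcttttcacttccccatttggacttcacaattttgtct

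The windows of Fcgr1, Fcgr3 and Fcgr4 each hold the 6-letter core 1 time, on the strand opposite to the gene. The match begins 55 bases before the start in Fcgr1, 22 bases before it in Fcgr4 and 6 bases before it in Fcgr3. No match lies in the window of Fcgr2b, nor in those of Fcer1g and Fcgrt, while that of Fcer1a has 1 match on the gene's own strand, 216 bases before the start. Fcer1g ran as closely with Fcgr1, Fcgr3 and Fcgr4 (Pearson r = 0.89 to 0.90), so not every gene that ran with them holds the core. Such a short sequence is common. Of 27025 mouse promoter windows of this length, 6252 (23.1%) hold it on either strand, so a match is a description of these letters and no evidence of binding.

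Fcgr2b differed between groups and the other 6 Fc receptor genes did not pass the test in any of the 5 comparisons made. Among controls it was higher with a microbiota than without, it was lower after PAT in SPF mice, and the effect of PAT on it was not the same in GF as in SPF mice (limma over all 12 mice, adjusted p below 0.05 over 556 genes). The calls that involve PAT were lost when any of several single mice was left out. All of these calls were lost under median centring, as given further on. In SPF control minus GF control, 1 of 7 members passed, where 42.1% of all genes did. In SPF PAT minus SPF control it was 1 of 7 against 26.3% of all genes, and in the difference between the PAT effects 1 of 7 against 17.1%. With so many genes of the panel called, these counts do not set the family apart. The median difference of the 7 members was 0.20 in SPF control minus GF control (0.08 over all genes) and -0.06 in SPF PAT minus SPF control (-0.02 over all genes). It was -0.11 in GF PAT minus GF control, where the median of all genes was -0.0043. In that last comparison limma called 0 members and 0% of all genes. At an unadjusted p below 0.05 there were 0 members and 28 genes, the Tukey test of the methods called 0 genes and voom 1, none of them a member. SPF PAT minus GF PAT gave 0 members and 1.44% of all genes, with 0 members at an unadjusted p below 0.05 and 0 members by the Tukey test or voom.

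**Figure D1:**
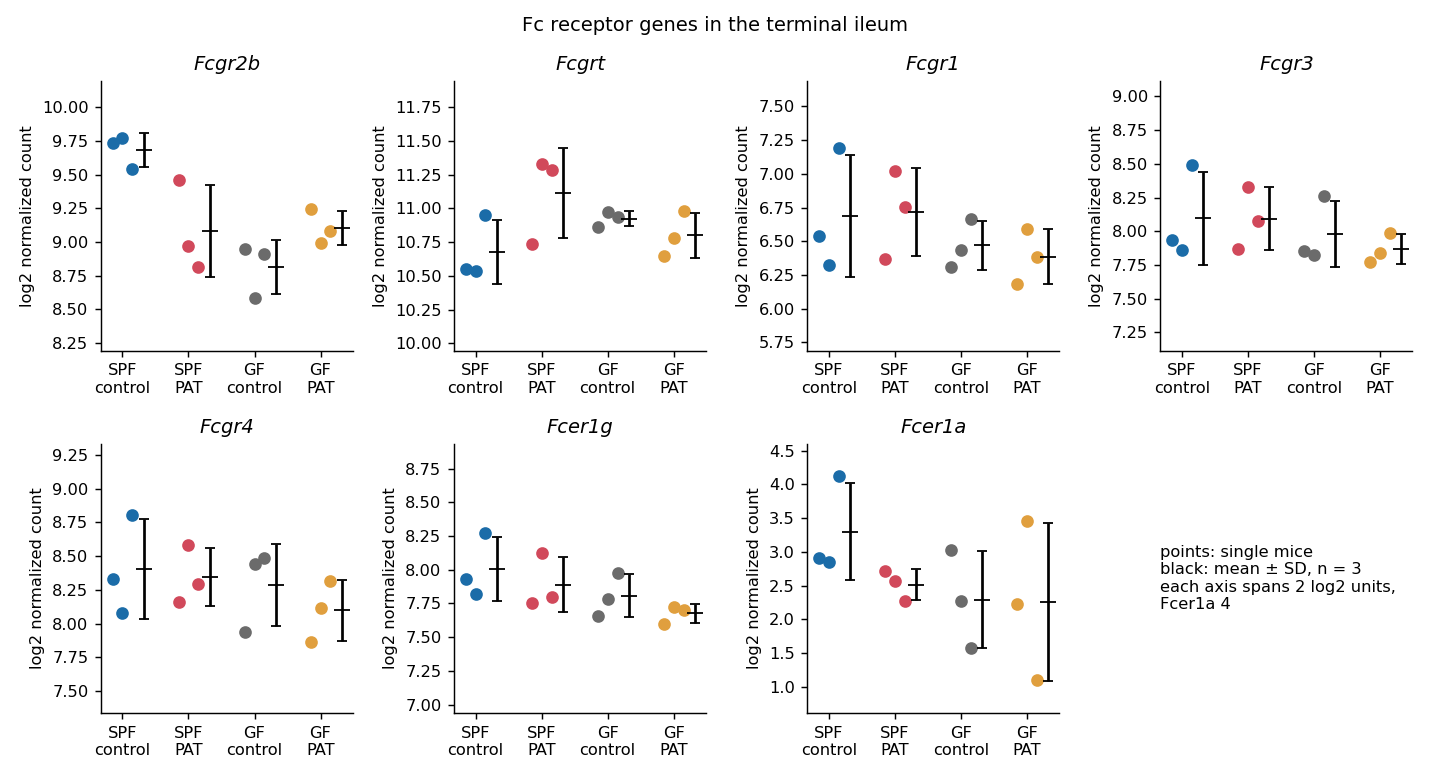
Log2 normalized counts of the 7 Fc receptor genes in each of the 12 mice, by group, with group mean and SD (n = 3). Axes span 2 log2 units, 4 for Fcer1a. Fcgr2b sits at 9.54 or above in all 3 SPF control mice and below that in the other 9, while the groups of Fcgr1, Fcgr3 and Fcgr4 overlap in every comparison.

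Fcgr2b, the inhibitory receptor, had log2 normalized counts of 9.74, 9.77 and 9.54 in SPF control mice 2, 7 and 8. GF control mice 37, 38 and 39 had 8.94, 8.58 and 8.91. The 2 groups did not overlap, as was so for 25.4% of all genes in this direction and 26.8% in the other, and the least of the SPF control mice was above the highest of all other mice. SPF control exceeded GF control by 0.87 ± 0.18 (SE) on the log2 scale, a fold of 1.83 (95% interval of the log2 difference 0.47 to 1.27, limma adjusted p = 0.00426). The fit called this difference whichever of the 12 mice was left out (0.76 to 0.94).

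After PAT, Fcgr2b in SPF mice 21, 26 and 27 was 9.46, 8.97 and 8.81. All 3 lay below every SPF control mouse, mouse 21 only just, so that the SD was 0.34 in SPF PAT and 0.12 in SPF control. The group mean fell by 0.60 on the log2 scale (SE 0.18, fold 0.659, limma adjusted p = 0.0369). This call is less secure than the comparison of the controls. It held without SPF PAT mouse 21 (adjusted p = 0.00838), and was lost without SPF PAT mouse 26 (0.108) or 27 (0.137), SPF control mouse 2 (0.109) or 7 (0.112), GF control mouse 39 (0.0502) or GF PAT mouse 42 (0.0540) or 43 (0.0525). It was also lost with the Tukey test of the methods (adjusted p = 0.159) and with only SPF mice in the fit (adjusted p = 0.109).

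In GF PAT mice 41, 42 and 43 Fcgr2b was 9.24, 8.99 and 9.08. All 3 were above the 3 GF control mice, the opposite order to that in SPF mice, though the difference of 0.29 (95% interval -0.11 to 0.70) did not pass the test (limma adjusted p = 0.693). Without overlap, 1 of 7 members was higher in this comparison, and of all genes 4.50% were higher and 7.55% lower. The PAT effect in SPF minus that in GF mice was -0.89 ± 0.25 (SE) on the log2 scale (limma adjusted p = 0.0412). That call held without SPF PAT mouse 21 (adjusted p = 0.0108), SPF control mouse 8 (0.0384) or GF control mouse 37 (0.0407). It was lost without any of the other 9 mice, which were SPF PAT mice 26 (0.0878) and 27 (0.0912), SPF control mice 2 (0.0914) and 7 (0.0939), GF PAT mice 41 (0.0971), 42 (0.0712) and 43 (0.0555), and GF control mice 38 (0.102) and 39 (0.0644).

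In order of mean level the groups were SPF control (9.68), GF PAT (9.11), SPF PAT (9.08) and GF control (8.81). SPF PAT and GF PAT overlapped and differed by -0.02 (95% interval -0.43 to 0.38, limma adjusted p = 0.989). An interval of that width does not show that the levels were alike. SPF PAT, from 8.81 to 9.46, also overlapped GF control, from 8.58 to 8.94. The size of the Fcgr2b differences depended on how mice were scaled to each other. Centring each mouse on its median shifted the median difference of all genes by -0.44 in SPF control minus GF control, by 0.36 in SPF PAT minus SPF control and by 0.54 in the difference between the PAT effects. Fcgr2b then differed by 0.43 (adjusted p = 0.0586), -0.25 (adjusted p = 0.284) and -0.35 (adjusted p = 0.255) in these 3 comparisons. The split of all genes called in SPF control minus GF control moved with it, from 108 higher and 126 lower to 57 higher and 169 lower. For SPF PAT minus SPF control the split moved from 78 higher and 68 lower to 76 and 30, and for the difference between the PAT effects from 55 and 40 to 60 and 19. Quantile normalization gave 72 and 137, 90 and 49, and 46 and 23, and kept all 3 calls of Fcgr2b.

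**Figure D2:**
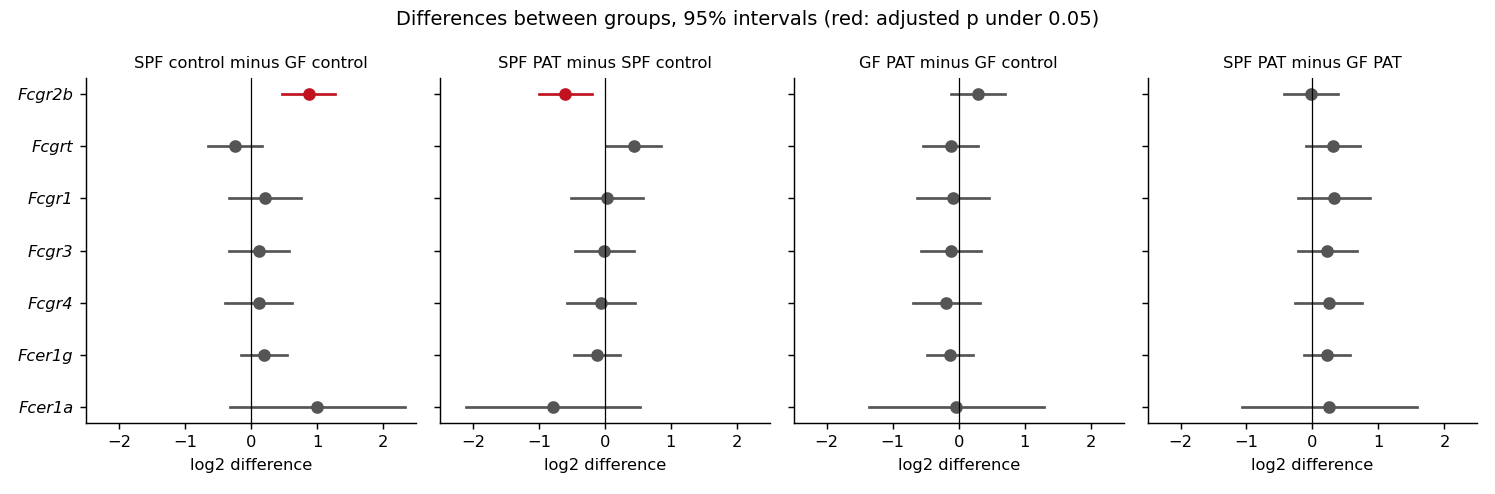
Log2 differences (points) of the 7 Fc receptor genes in the 4 comparisons of a pair of groups, with 95% intervals from limma (lines) and red for an adjusted p below 0.05. Fcgr2b is red at 0.87 and -0.60, and every interval of the other genes but that of Fcgrt in SPF PAT minus SPF control reaches 0.

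The tissue was taken whole, so fewer cells of a type and less RNA per cell cannot be told apart in any of these values. Sums of lymphocyte markers are given beside Fcgr2b, which B cells express. The summed normalized counts of 8 measured B cell markers of 9 listed were 6077 and 6908 in SPF control mice 2 and 7 and 1204 in SPF control mouse 8. SPF PAT mouse 21 had 5960, against 812 and 820 in SPF PAT mice 26 and 27. The GF control mice ranged from 847 to 3671 and the GF PAT mice from 2027 to 5910. The sum therefore differed several-fold between mice of the same group, and SPF PAT mouse 21, the SPF PAT mouse with the most Fcgr2b, also had the most B cell marker RNA of its group. SPF control mouse 8 had 9.54 of Fcgr2b with a low B cell sum. The sums of 7 measured T cell markers of 7 listed were 972 to 1618 in SPF control, 341 to 981 in SPF PAT, 306 to 722.5 in GF control and 443 to 883.5 in GF PAT. In SPF control minus GF control 1 of 8 B cell and 4 of 7 T cell markers passed as higher, where 42.1% of all genes were called in either direction, and in SPF PAT minus SPF control 1 and 4 fell, where 26.3% of all genes were called. Of the other leukocyte lists, 3 had larger sums in all SPF control mice than in the other 9 mice and 3 did not. The sum of 6 measured neutrophil markers of 8 listed was 76.0 to 142 there and 28.5 to 72.9 in the other 9 mice, the sum of 6 dendritic cell markers of 8 listed was 1674.5 to 1800 against 1041 to 1277, and the sum of 5 NK cell markers of 7 listed was 260 to 299 against 131 to 245.5. Irf8 gave most of the dendritic cell sum in SPF control (mean log2 10.3). It was the 1 of these 6 markers that passed, with 0.65 in SPF control minus GF control and -0.58 in SPF PAT minus SPF control. The sum of 4 plasma cell markers of 7 listed was 5927 to 8939 in SPF control mice and overlapped that in SPF PAT mice, from 6058 to 7955. Xbp1, named after its values were seen, gave most of that sum (mean log2 12.6 in SPF control). It had -0.0053 in SPF control minus GF control, where 2 of the 4 passed as higher, Irf4 (2.44) and Tnfrsf17 (2.65). In SPF PAT minus SPF control 2 of 4 fell, Irf4 (-1.22) and Prdm1 (-0.72). Macrophage and monocyte sums of SPF control and SPF PAT mice also overlapped. The sums of mast cells and basophils, from 356.5 to 533 in SPF control, were 749 to 987 in GF control. No measured marker of these lists was at 0 in all mice. The part of any of these cell types in the Fcgr2b differences was not tested.

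The 3 genes of the panel whose values ran most like Fcgr2b over the 12 mice were Itgb2, the beta chain of the leukocyte integrins (Pearson r = 0.98), Zap70, a T cell receptor kinase (0.98), and Cd247, the zeta chain of the T cell receptor complex (0.97). With group means removed the values were 0.95, 0.95 and 0.93. These are descriptions over mice that share their groups and their scaling.

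**Figure D3:**
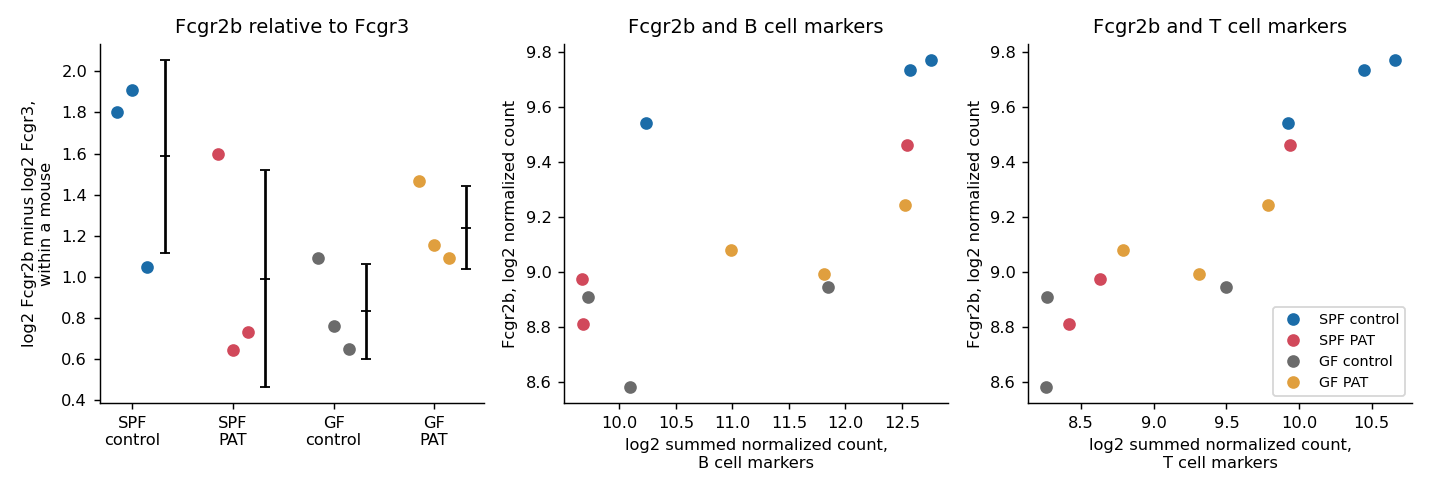
On the left, the difference Fcgr2b minus Fcgr3 (log2) within each mouse by group, with mean and SD (n = 3), and beside it Fcgr2b (log2 normalized count) against the log2 of the summed normalized counts of B cell and of T cell markers, 1 point a mouse. SPF control mice 2 and 7 and SPF PAT mouse 21 have B cell sums of 5960 to 6908, and SPF control mouse 8 has 1204 at a similar Fcgr2b level.

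Fcgrt, the neonatal receptor chain, had log2 normalized counts of 10.55, 10.53 and 10.95 in SPF control mice 2, 7 and 8. SPF PAT mice 21, 26 and 27 had 10.73, 11.33 and 11.29. The 2 groups overlapped through SPF control mouse 8 and SPF PAT mouse 21. The SPF PAT mean was 0.44 ± 0.18 (SE) above the SPF control mean on the log2 scale, a fold of 1.35, with an unadjusted limma p of 0.0403 and an adjusted p of 0.104. Without SPF PAT mouse 21 the difference was 0.63 and passed (adjusted p = 0.0195), as did the difference between the PAT effects in SPF and GF mice (0.75, adjusted p = 0.0306), which was 0.56 with all mice (adjusted p = 0.139).

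Fcgrt in GF control mice 37, 38 and 39 was 10.86, 10.98 and 10.93, and in GF PAT mice 41, 42 and 43 it was 10.65, 10.78 and 10.98. The GF groups overlapped and differed by -0.12 (adjusted p = 0.767). SPF control and GF control differed by -0.24 (adjusted p = 0.296), a value that quantile normalization turned to 0.02. SPF PAT and GF PAT differed by 0.31 (95% interval -0.10 to 0.73, adjusted p = 0.656). B2m, which encodes the light chain that Fcgrt pairs with, had group means between 15.5 and 15.8 and passed in none of the 5 comparisons by limma, and did not show the direction of Fcgrt, with 0.20 in SPF control minus GF control and -0.12 in SPF PAT minus SPF control. Taken within each mouse, which removes the scaling, Fcgrt minus B2m was -5.23 to -5.02 in SPF control, -4.96 to -4.26 in SPF PAT, -4.74 to -4.54 in GF control and -4.83 to -4.56 in GF PAT. All SPF control mice lay below the other 9 on this measure, which was chosen after the values were seen and was given no test. The nearest values were -5.02 and -4.96, and B2m itself was higher in SPF control. How many other genes of the panel would separate in this way against B2m was not counted. Sums of 4 measured endothelial and stromal markers of 6 listed were 1502.5 to 1702 in SPF control and 1674 to 2142 in SPF PAT mice, and those of 4 measured epithelial markers of 6 listed were 114643 to 136161 and 108122 to 181532. Itln1, named after its values were seen, and Pigr gave most of the epithelial sum (mean log2 16.0 and 15.8 in SPF control). They went opposite ways in SPF PAT minus SPF control (0.54 and -0.59, neither passing), so the sum is a poor measure of epithelium. The part of these tissues in the Fcgrt values was not tested. Over the 12 mice Fcgrt ran against Fcgr2b (r = -0.68), and the genes most like it were Cd164, a sialomucin (0.92), Tlr3, the sensor of double-stranded RNA (0.92), and Cd34, a marker of endothelium and progenitors (0.89).

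The activating receptors and their shared chain showed no difference that passed. Fcgr1, the high-affinity IgG receptor, had log2 normalized counts of 6.54, 6.32 and 7.19 in SPF control mice 2, 7 and 8, and 6.37, 7.02 and 6.76 in SPF PAT mice 21, 26 and 27. The GF control mice 37, 38 and 39 had 6.31, 6.44 and 6.67 and the GF PAT mice 41, 42 and 43 had 6.18, 6.59 and 6.39. All 4 groups overlapped. SPF control minus GF control was 0.21 (95% interval -0.34 to 0.76, adjusted p = 0.488), and SPF PAT minus SPF control was 0.03 (adjusted p = 0.935).

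Fcgr3, a low-affinity activating IgG receptor of myeloid and natural killer cells, had 7.94, 7.86 and 8.49 in SPF control mice 2, 7 and 8 and 7.87, 8.33 and 8.08 in SPF PAT mice 21, 26 and 27. In GF control mice 37, 38 and 39 it had 7.86, 7.82 and 8.26, and in GF PAT mice 41, 42 and 43 it had 7.77, 7.84 and 7.99. SPF control mouse 8 was the highest of the 12. The differences were 0.12 in SPF control minus GF control (95% interval -0.33 to 0.57, adjusted p = 0.656) and -0.0056 in SPF PAT minus SPF control (adjusted p = 0.989).

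Fcgr4, an activating receptor of monocytes, macrophages and neutrophils, had 8.33, 8.07 and 8.80 in SPF control mice 2, 7 and 8 and 8.16, 8.58 and 8.29 in SPF PAT mice 21, 26 and 27. GF control mice 37, 38 and 39 had 7.94, 8.44 and 8.48, and GF PAT mice 41, 42 and 43 had 7.86, 8.12 and 8.32. Again mouse 8 was the highest and all groups overlapped. SPF control minus GF control was 0.12 (adjusted p = 0.699), SPF PAT minus SPF control was -0.06 (adjusted p = 0.852) and GF PAT minus GF control was -0.19 (adjusted p = 0.738).

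Fcer1g, the signalling gamma chain, had 7.93, 7.82 and 8.27 in SPF control mice 2, 7 and 8 and 7.75, 8.12 and 7.80 in SPF PAT mice 21, 26 and 27. It had 7.66, 7.78 and 7.98 in GF control mice 37, 38 and 39 and 7.60, 7.73 and 7.70 in GF PAT mice 41, 42 and 43. The SPF PAT mice all lay above the GF PAT mice, by 0.21 on average (95% interval -0.13 to 0.56, adjusted p = 0.704). It was the 1 of 7 members higher without overlap in that comparison, in which 8.45% of all genes were so and 5.22% were lower without overlap. Centring on the median and quantile normalization turned the sign of SPF control minus GF control for all 4 of these genes and of SPF PAT minus SPF control for Fcer1g, Fcgr3 and Fcgr4, so none of them has a settled direction. The 95% interval for Fcgr1, the widest of the 4 in SPF control minus GF control, ran from -0.34 to 0.76, so the levels were not shown to be alike.

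Between mice, the values of Fcer1g, Fcgr1, Fcgr3 and Fcgr4 ran together. Over the 12 mice the 6 pairs among them had Pearson r of 0.86 to 0.91, and of 0.83 to 0.93 with group means removed. Within SPF control, mouse 8 was the highest for all 4 genes and mouse 7 the lowest. Within SPF PAT, mouse 26 was the highest and mouse 21 the lowest for all 4, and within GF control mouse 39 was the highest for all 4. In GF PAT mouse 41 was the lowest for all 4, and the highest was mouse 42 for Fcgr1 and Fcer1g and mouse 43 for Fcgr3 and Fcgr4. Any scaling error of a mouse is shared by its genes and would add to such correlations. For each of these 4 genes the 3 most alike on the panel were mostly the others of the set. The genes outside it were Emr1, which encodes the macrophage marker F4/80 (r = 0.92 with Fcgr3 and 0.88 with Fcgr1), and C1qb, a complement chain made by macrophages (0.89 with Fcer1g).

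**Figure D4:**
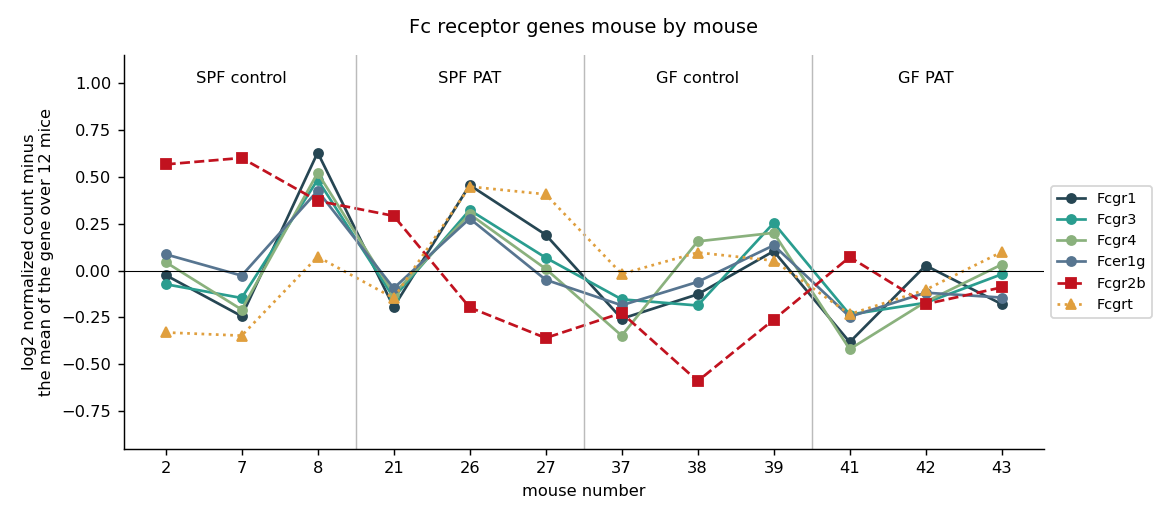
For the 6 members other than Fcer1a, log2 normalized count minus the gene's mean over the 12 mice, mouse by mouse, with mice ordered by group. Lines only join the values of a gene. Fcer1g, Fcgr1, Fcgr3 and Fcgr4 peak together in SPF control mouse 8, SPF PAT mouse 26 and GF control mouse 39, whereas Fcgr2b is high in all 3 SPF control mice.

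Macrophage and monocyte markers, 9 measured of 12 listed, had summed normalized counts of 2193, 1901 and 2757 in SPF control mice 2, 7 and 8. In SPF PAT mice 21, 26 and 27 the sums were 1607, 2213 and 1838. The GF control sums were 1588 to 2085 and the GF PAT sums 1554.5 to 1839. Mouse 8, mouse 26 and mouse 39 had the largest sum of their groups, as they had the largest values of the 4 receptor genes. In GF PAT this match was only partial. Mouse 43 had the largest sum there (1839) and was the highest for Fcgr3 and Fcgr4. Mouse 42, the highest for Fcgr1 and Fcer1g, had a sum of 1558. No measured marker was at 0 in all mice, and the part of macrophage number in the receptor levels was not tested. In the fit across all genes 2 of these 9 markers, Itgam (1.26) and Ccr2 (0.60), were higher and Cd163 (-1.02) was lower in SPF control than in GF control. In that comparison 42.1% of all genes passed. In SPF PAT against SPF control, where 26.3% of all genes passed, 1 of the 9 did, Itgam, which fell (-0.90).

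The difference Fcgr2b minus Fcgr3 within a mouse sets the inhibitory receptor against an activating one and is free of the scaling between mice. It was 1.80, 1.91 and 1.05 in SPF control mice 2, 7 and 8, a mean of 1.59 ± 0.47 (SD, n = 3). It was 1.60, 0.64 and 0.73 in SPF PAT mice 21, 26 and 27, a mean of 0.99 ± 0.53 (SD, n = 3). The GF control mean was 0.83 ± 0.23 (SD, n = 3) and the GF PAT mean 1.24 ± 0.20 (SD, n = 3). SPF control overlapped the other groups through mouse 8, in which Fcgr3 was high. The GF PAT mice, from 1.09 to 1.47, only just cleared the GF control mice, whose highest value rounds to 1.09 as well. Over the 12 mice the SD of this difference was 0.44. That of Fcgr4 minus Fcgr3 was 0.14, of Fcgr1 minus Fcgr3 0.13 and of Fcer1g minus Fcgr3 0.10, so these 3 genes kept a steadier ratio to Fcgr3 than Fcgr2b did. These differences were formed after the values were seen and were given no test.

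Fcer1a, the IgE-binding chain, had log2 normalized counts of 2.92, 2.85 and 4.13 in SPF control mice 2, 7 and 8, from 9, 9 and 21 counts. SPF PAT mice 21, 26 and 27 had 2.72, 2.56 and 2.26, from 7, 5 and 4 counts. The SPF PAT mice all lay below the SPF control mice, a few counts apart, and the difference of -0.78 did not pass (95% interval -2.10 to 0.54, limma adjusted p = 0.322). With Fcgr2b this made 2 of 7 members lower without overlap in SPF PAT minus SPF control, in which 18.2% of all genes were so and 22.8% were higher without overlap. GF control mice 37, 38 and 39 had 3.02, 2.27 and 1.58, and GF PAT mice 41, 42 and 43 had 2.22, 3.45 and 1.10. SPF control exceeded GF control by 1.01, with an interval from -0.31 to 2.33 (adjusted p = 0.191). Leaving out 1 mouse at a time gave 0.59 to 1.37. The pooled SD within groups was 0.79 for Fcer1a, against 0.18 to 0.31 for the other 6 members and 0.30 for the median gene. Of 9 listed mast cell and basophil markers only Kit and Il1rl1 were measured, and both are also found on other cells. Kit differed by -0.80 on the log2 scale in SPF control minus GF control, and rose by 0.70 in SPF PAT against SPF control. Il1rl1 differed by -1.34 in SPF control minus GF control. Neither went the way of the Fcer1a values in SPF control minus GF control, and the part of mast cell number in Fcer1a was not tested.

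Of 30 listed signalling partners of Fc receptors 15 were measured, Fcer1g among them. In SPF control minus GF control 6 passed as higher and 1 as lower, where 42.1% of all genes passed, with a median difference of 0.42 against 0.08 over all genes. Those higher included Cd247 (2.03), a T cell receptor chain, Zap70 (1.54), a T cell receptor kinase, and the Src family kinases Fyn (0.68) and Lck (1.70). The 6 also held Cybb (0.83) and Blnk (0.42), both named after their values were seen. Prkcd, a protein kinase C, was the one that was lower (-0.85). In SPF PAT minus SPF control 2 rose and 3 fell, where 26.3% of all genes passed, with a median of -0.39 against -0.02 over all genes. The risers were Prkcd (0.64) and the adaptor Lcp2 (0.48), and Zap70 (-1.28), Cd247 (-1.32) and the B cell adaptor Blnk (-0.46) fell, Blnk being named after its value was seen. Syk, the kinase that ITAM-bearing receptors recruit in myeloid and B cells, was not among them, with 0.19 (adjusted p = 0.517) and 0.20 (adjusted p = 0.496) in these comparisons. In the difference between the PAT effects 1 was higher and 2 lower, where 17.1% of all genes passed. In GF PAT minus GF control and SPF PAT minus GF PAT limma called 0 of 15, against 0% and 1.44% of all genes.

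Of 18 listed receptors for immunoglobulin and immune complexes 11 were measured. In SPF control minus GF control, where 42.1% of all genes passed, 2 of the 11 passed, both as higher. They were Pigr, the carrier of IgA and IgM across the epithelium (0.77, adjusted p = 0.0257), and Lilrb4, an inhibitory receptor with ITIM motifs (1.01, adjusted p = 0.000932). In SPF PAT against SPF control Lilrb4 fell (-0.48, adjusted p = 0.0440), while Pigr had -0.59 (adjusted p = 0.0896). Lilrb4 was the 1 of 11 that passed there, where 26.3% of all genes did. The effect of PAT on Lilrb4 in SPF mice differed from that in GF mice (-0.95, adjusted p = 0.0208), so that this inhibitory receptor passed in the same 3 comparisons as Fcgr2b and with the same signs. It was the 1 of 11 that passed in that difference, where 17.1% of all genes did. These counts do not set the list apart from the panel. How many genes of the panel passed in all 3 comparisons was not counted.

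Of 17 listed cytokines, receptors and transcription factors known to regulate Fc receptor genes 16 were measured. In SPF control minus GF control 3 were higher and 3 lower, where 42.1% of all genes passed. In SPF PAT minus SPF control 2 rose and 2 fell, where 26.3% of all genes passed. These counts do not set the list apart from the panel. Irf8, a transcription factor of myeloid and B cells, was 0.65 higher in SPF control than in GF control and fell after PAT in SPF mice (-0.58). Ifngr1, a chain of the interferon gamma receptor, went the other way (-1.01 and 0.75), as did Nfkb1 (-0.61 and 0.41). Ifnar1, a chain of the type I interferon receptor (-0.47), and Il4ra, the alpha chain of the interleukin 4 receptor (0.35), passed in SPF control minus GF control. Fcgr1, which interferon gamma is known to induce, had 0.21 and 0.03 in the same comparisons and did not pass. In the difference between the PAT effects 2 of the 16 were higher and 2 lower, where 17.1% of all genes passed. In GF PAT minus GF control limma called 0 of the 16 and 0% of all genes.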

How the data were processed

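NanoString nCounter counts of an immunology panel were taken from the terminal ileum of 12 mice. The deposited log2 values were made by the authors from counts normalized with DESeq2, whose version is not given in the sources used here. Of the entries, 28 had no value and were not used, leaving 556 genes. Every value other than 0 lay within 0.01 of a whole count after undoing the size factors (0.83 to 1.25). The lists and the 7 members were chosen with earlier results of these data known. Differences were fitted with limma 3.58.1 in R 4.3.3 (lmFit, eBayes) over all 12 mice with 1 mean per group and no covariate, adjusted by Benjamini-Hochberg over 556 genes, and called at an adjusted p below 0.05. The code was tested on simulated data. Genes named were all members, B2m, Pigr and Syk. Called genes were named for each list other than the cell type markers (at most 6, smallest p first). The 3 genes most correlated with each member but Fcer1a were named as well (mean normalized count of at least 20). Cell type markers were named only in part. Alternatives were the Tukey test of the methods (1 gene with the same value in all mice was left out), voom on the recovered counts with TMM scaling written for this purpose, median centring, quantile normalization, a filter at a mean normalized count of 20, only the groups compared, log2 of the normalized count plus 1, and leaving out each mouse. Symbols were matched to RefSeq (537 current, 16 older names, all 7 members matched). A gene that the rule would name is not reported here.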

Additional observations from a re-analysis of the deposited data

Results flagged for a closer look

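Fcgr2b is listed because a test of the difference itself separated its response to PAT in SPF mice from that in GF mice. The PAT effect was -0.60 on the log2 scale in SPF mice and 0.29 in GF mice, and their difference was -0.89 (limma, adjusted p = 0.0412). The effects have separate control mice. Median centring gave -0.35 for the difference (adjusted p = 0.255).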

How the results depend on the processing

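No paired analysis was possible because each mouse has a number of its own in the labels. The higher Fcgr2b level in SPF control than in GF control kept its call in every alternative but median centring. Under median centring 0 Fc receptor genes passed in the 3 comparisons that called Fcgr2b, against 1 in each. The Tukey test and a fit of only the groups compared also gave 0 in SPF PAT minus SPF control. Over all genes the Tukey test called 142 against 234 in SPF control minus GF control, 55 against 146 in SPF PAT minus SPF control and 1 against 8 in SPF PAT minus GF PAT. With only the groups compared, 76 and 0 genes passed in the last 2 of these, and median centring gave 1 in SPF PAT minus GF PAT. On the recovered counts voom called 241, 177, 1, 91 and 7 genes in the 5 comparisons, the 1 in GF PAT minus GF control where limma called 0.

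Leaving out 1 mouse at a time moved the number of genes called from 169 to 259 in SPF control minus GF control, from 64 to 232 in SPF PAT minus SPF control, from 35 to 217 in the difference between the PAT effects (95 with all mice), from 0 to 1 in GF PAT minus GF control and from 1 to 11 in SPF PAT minus GF PAT. For the Fc receptor genes it gave 1 throughout, 0 to 2, 0 to 2, 0 and 0. The cause of these shifts was not tested.

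No difference past the threshold changed sign. Among the differences below it, median centring and quantile normalization turned SPF control minus GF control to -0.24 and -0.18 for Fcer1g, -0.23 and -0.21 for Fcgr1, -0.32 and -0.23 for Fcgr3 and -0.32 and -0.13 for Fcgr4. SPF PAT minus SPF control turned to 0.24 and 0.17 for Fcer1g, 0.35 and 0.19 for Fcgr3 and 0.30 and 0.053 for Fcgr4. Quantile normalization gave 0.021 for Fcgrt in SPF control minus GF control, and median centring 0.081 for Fcgr2b in SPF PAT minus GF PAT. In GF PAT minus GF control Fcer1a turned to 0.049 with voom, 0.10 with quantile normalization and 0.0010 on the scale of the normalized count plus 1. Fcer1g in the difference between the PAT effects turned to -0.036 with voom.

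Leaving out a mouse turned 16 uncalled differences. In SPF control minus GF control the ranges were -0.040 to 0.40 for Fcgr1, -0.081 to 0.26 for Fcgr3 and -0.085 to 0.28 for Fcgr4. In SPF PAT minus SPF control they were -0.23 to 0.015 for Fcer1g, -0.15 to 0.28 for Fcgr1, -0.13 to 0.19 for Fcgr3 and -0.22 to 0.14 for Fcgr4. In GF PAT minus GF control they were -0.63 to 0.54 for Fcer1a, -0.19 to 0.017 for Fcgr1 and -0.19 to 0.028 for Fcgr3. In the difference between the PAT effects they were -0.10 to 0.15 for Fcer1g, -0.067 to 0.37 for Fcgr1, -0.033 to 0.31 for Fcgr3 and -0.033 to 0.33 for Fcgr4. In SPF PAT minus GF PAT they were -0.32 to 0.85 for Fcer1a and -0.21 to 0.11 for Fcgr2b. With 2 to 21 counts a mouse, depth limits Fcer1a the most.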
